A study of Mus musculus with 4 samples.

Results

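The constitutive proteasome was followed here through every mouse gene whose symbol is Psma, Psmb, Psmc or Psmd with a number, leaving out Psmb8, Psmb9 and Psmb10, which encode the inducible catalytic subunits of the immunoproteasome. The genes were taken by name from the platform annotation, by a rule that uses no measured value. The pattern took in 37 of the 18193 genes named on the array, measured by 76 of 34945 probe sets that carry a single symbol. Of these genes 31 encode subunits of the constitutive 26S proteasome, 14 of the core particle and 17 of the regulatory particle. The other 6 are not part of that complex in liver. Psmd5, Psmd9 and Psmd10 encode chaperones that help build the base of the regulatory particle, Psma8 and Psmb11 encode subunits known from testis and thymus, and Psmc3ip encodes a recombination cofactor that shares only the letters of the symbol.

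The 26S proteasome degrades proteins that carry ubiquitin chains. Its core particle is a barrel of outer alpha rings, which gate the entrance, and inner beta rings, whose subunits Psmb5, Psmb6 and Psmb7 cut the substrate. The regulatory particle caps the barrel: its base holds a ring of ATPases that unfold the substrate and receptors that bind ubiquitin, and its lid removes the ubiquitin chain. In hepatocytes, as in other cells, the genes of both particles are under common control by the transcription factor NRF1 (Nfe2l1), which raises them together when proteasome activity is short. Subunit transcripts are abundant in nearly every cell type, and a liver sample holds those of all its cells.

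Expression was measured in regenerating liver of nude mice of the BALB/c nu/nu strain, which lack mature T cells. In every group the hepatotoxin carbon tetrachloride had been given 23 times at 0.25 ml/kg, followed by 1000000 human bone marrow mesenchymal stem cells by injection into the spleen, partial hepatectomy on day 21 and removal of the liver on day 8 after it. The EGFP group received cells that expressed the green fluorescent protein EGFP (2 arrays), and the OGFRL1 group cells that expressed OGFRL1, a relative of the opioid growth factor receptor (2 arrays). The ages of the mice, the vector and whether the 2 livers of a group are those of 2 mice are not given in the sources used here, so the p-values measure the spread between arrays, part of which may be technical. Each array gave 1 MAS5 signal per probe set, a brightness on a linear scale that cannot be compared between probe sets.

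Pearson correlations across the 11942 genes tested, which are not independent replicates, were 0.972 between the EGFP arrays, 0.984 between the OGFRL1 arrays and 0.965 to 0.973 between groups. Hepatocyte markers such as Alb, at signals of 7041 to 16107, were bright on every array of this tissue. Of 13 hepatocyte markers 12 had a log2 fold change (OGFRL1 minus EGFP) below 0, with a median of -0.51 and summed signals of 142402 and 102752 (EGFP 1 and 2) and 80936 and 87230 (OGFRL1 1 and 2). All 9 markers of cycling cells that were tested were above 0, with a median of 1.72 and sums of 1384, 858, 3423 and 3996 in the same order. The only hepatocyte marker above 0 was Ass1, whose probe set was dim, at signals of 22.1 to 55.5. The other hepatocyte markers are among the brightest genes, and bright probe sets as a whole were lower on the OGFRL1 arrays, including the Cre spike-in controls at -0.43. Of the markers tested, 8 of 9 for stellate cells and myofibroblasts were above 0 (median 0.90). So were 4 of 6 for cholangiocytes and progenitor cells, taken as 1 list, and 2 of 7 for endothelial cells. In tissue, fewer cells of a type and less RNA per cell cannot be told apart. The part of these differences in the proteasome values was not tested.

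No proteasome gene passed the test between the groups. Of the 37 genes 36 were bright enough to be tested, and 0 passed an adjusted p of 0.05 in limma (a linear model with moderated variances and Benjamini-Hochberg adjustment over all genes), where 61 of all 11942 genes did (0.511%). Of the 31 subunits, 0 had an unadjusted p under 0.05, beside 15.3% of all genes tested and 20.4% of the 3213 genes whose mean signal lay in the subunits' range of 252 to 2755. The only member under that level was Psmc3ip, which is no proteasome subunit. The count of subunits depended on the setting. It was 1 under quantile normalization, median scaling and the replicate block, and 2 when each gene was the mean over its probe sets. It also rose when either EGFP array was left out, and by far the most without EGFP 2. Those fits leave 1 EGFP array. No share of all genes is given for these fits, so their counts cannot be set against the shares above. Both OGFRL1 arrays lay above both EGFP arrays for 9 of the 31 subunits, beside 27.0% of all genes, and below them for 2, beside 20.5%. Subunits above 0 numbered 20 of 31, beside 55.6% of all genes and 49.8% of those in the subunits' signal range, and the median log2 fold change was 0.071, beside 0.042 over all genes tested.

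A missed threshold does not show equal levels, so the interval of each difference was read as well. The 95% interval of the difference lay inside a 1.5-fold change in either direction for 23 of the 31 subunits, 12 of the 14 in the core and 11 of the 17 in the regulatory particle. This was so for 28.4% of all genes and for 51.1% of those in the subunits' signal range. The subunits whose interval reached further were Psma4, Psma5, Psmc4, Psmd3, Psmd6, Psmd11, Psmd13 and Psmd14. For those 8 genes these arrays allow a change of more than 1.5-fold, and the number of arrays, 2 a group, limits every value. The intervals cover only the brightest probe set of each gene, so they do not bound the others. Another bright probe set gave a log2 fold change of -0.34 ± 0.18 (SE) for Psmc2 and 0.24 ± 0.19 for Psmb4, where the brightest gave 0.18 and 0.10.

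**Figure D1:**
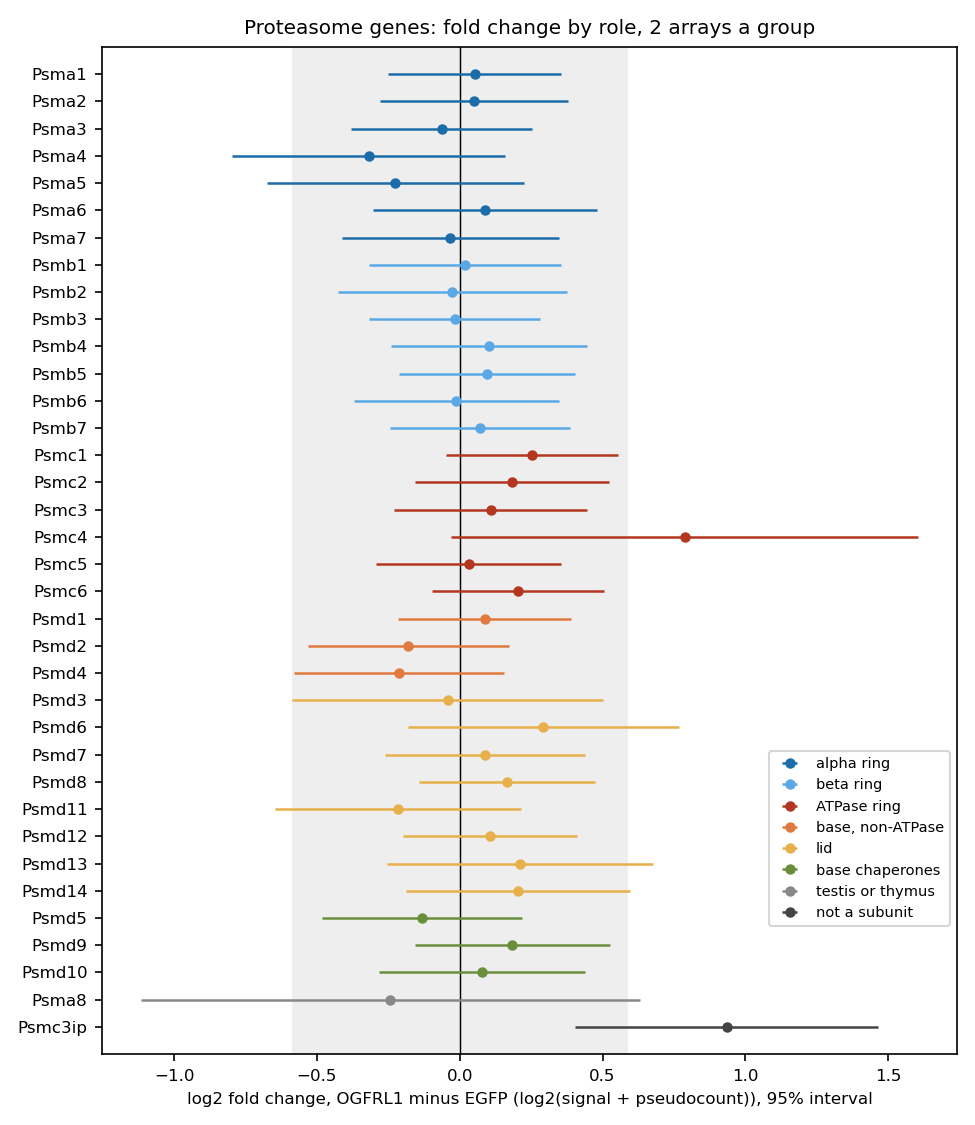
Log2 fold change (OGFRL1 minus EGFP, horizontal axis) of the 36 genes tested, with the 95% interval of the limma fit as a bar and the role as the colour. The grey band is a 1.5-fold change either way; the interval of 23 of 31 subunits stays inside it, Psmc4 is farthest to the right among subunits, and only the interval of Psmc3ip leaves out 0.

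The alpha ring, which forms the outer wall of the core and its gate, had a median log2 fold change of -0.033, with 3 of 7 genes above 0 (55.6% over all genes). Psma1 had signals of 1285 and 1224 on EGFP arrays 1 and 2, and of 1313 and 1289 on OGFRL1 arrays 1 and 2. The OGFRL1 arrays were both higher, one of them by only a few units, with a log2 fold change of 0.053 ± 0.13 (SE, limma adjusted p = 0.886). Psma2 gave 1131, 1001, 1057 and 1149 in that order of arrays. Psma3 gave 2952, 2682, 2687 and 2701, and Psma6 2732, 2108, 2546 and 2553. In these 3 genes the values of the groups overlapped, and EGFP 2 was the lowest array. Psma7 did likewise, with 1308, 1037, 1185 and 1094.

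Psma4 and Psma5 were set apart by array EGFP 1 alone. Psma4 had 2368 on EGFP 1 and 1616, 1615 and 1523 on EGFP 2, OGFRL1 1 and OGFRL1 2, so 3 of the arrays were nearly level. Its log2 fold change of -0.32 ± 0.20 (adjusted p = 0.512) was the lowest of any subunit. It was -0.043 without EGFP 1 and -0.59 without EGFP 2. Psma5 had 1849.6 on EGFP 1 against 1304, 1344 and 1312, and its log2 fold change was -0.23 ± 0.19 with all arrays and 0.026 without EGFP 1. A second bright Psma5 probe set repeated the pattern, with 1023, 623, 647 and 662.

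The beta ring had the narrowest span of fold changes among the role groups with several genes. Read from their brightest probe sets, its 7 genes had log2 fold changes between -0.026 and 0.10 and a median of 0.019. All 7 intervals of these probe sets lay inside a 1.5-fold change. Psmb5, the chymotrypsin-like subunit that proteasome inhibitors such as bortezomib bind, had signals of 1150.2 and 1099 in the EGFP group and 1159 and 1244 in the OGFRL1 group. The groups did not overlap, but the difference of 0.095 ± 0.13 had an interval from -0.21 to 0.40. Psmb6, the caspase-like subunit, had 1274 and 1121 against 1092 and 1286 (-0.012 ± 0.15). Psmb7, the trypsin-like subunit, had 839.7 and 805 against 824 and 906 (0.071 ± 0.13). The values of these latter 2 catalytic subunits overlapped between the groups.

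The structural beta subunits overlapped as well. Psmb3 was the steadiest, at 1376, 1358, 1376 and 1324 on EGFP 1, EGFP 2, OGFRL1 1 and OGFRL1 2, with an interval from -0.32 to 0.28. Psmb1 had 1413, 1261, 1276 and 1433. Psmb2 had 871, 662, 733 and 759, and Psmb4 2450.5, 2076, 2464 and 2384. In Psmb2 the OGFRL1 arrays lay inside the gap between the EGFP arrays, which was wider than the difference between the groups.

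**Figure D2:**
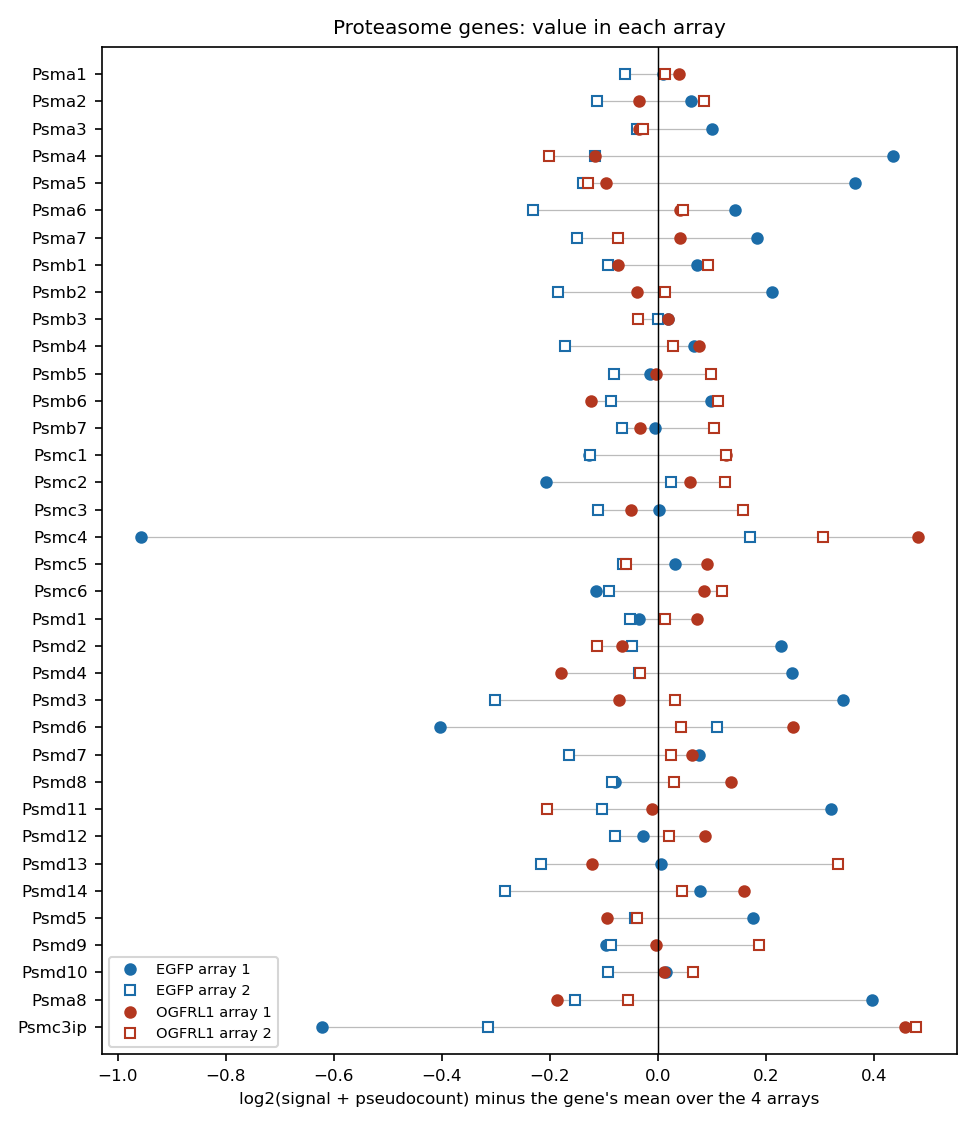
Value of each of the 36 tested genes on each array, as log2(signal + pseudocount) minus the gene's mean over the 4 arrays (horizontal axis), with circles for array 1 and squares for array 2 of the EGFP (blue) and OGFRL1 (red) groups. EGFP array 1 stands apart for Psma4, Psma5 and Psmc4, while the 2 arrays of each group coincide in Psmc1.

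All 6 genes of the ATPase ring, which unfolds substrates and opens the gate of the core, were above 0, with log2 fold changes from 0.032 to 0.79 and a median of 0.19. None passed the test, and both OGFRL1 arrays lay above both EGFP arrays for 4 of the 6 (27.0% over all genes). Psmc1 had the tightest replicates of any member, at 625 and 626 in the EGFP group and 746 and 746 in the OGFRL1 group. That is a log2 fold change of 0.25 ± 0.13 with an interval from -0.049 to 0.55 (limma adjusted p = 0.407). Psmc6 had 828 and 841 against 951 and 973 (0.20 ± 0.12, adjusted p = 0.5). In Psmc1 and Psmc6 the gap between the groups was wider than the gap within either group.

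Psmc2 had 1130.5 and 1327 against 1361 and 1423 (0.18 ± 0.14). Its EGFP arrays lay farther apart than EGFP 2 and OGFRL1 1 did. Psmc3 had 1091 and 1008 against 1052 and 1214 (0.11 ± 0.14), and Psmc5 702 and 657 against 731 and 659 (0.032 ± 0.13), both with overlapping groups.

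Psmc4 had the largest difference of any subunit and the widest interval. Its brightest probe set had 595 on EGFP 1 but 1303, 1619 and 1432 on EGFP 2, OGFRL1 1 and OGFRL1 2. Only EGFP 1 was low, and EGFP 2 was close to the OGFRL1 arrays. The log2 fold change was 0.79 ± 0.34 (interval -0.031 to 1.61, limma adjusted p = 0.344). The value for Psmc4 was 0.22 without EGFP 1 and 1.35 without EGFP 2. Averaging its 2 probe sets gave 0.47. The second Psmc4 probe set gave 526, 527, 585 and 595 on EGFP 1, EGFP 2, OGFRL1 1 and OGFRL1 2, a log2 fold change of 0.16 with EGFP 1 level with EGFP 2. The low value of EGFP 1 was seen in 1 of the 2 probe sets.

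The other subunits of the base were split. Psmd1, a scaffold, had 975 and 963 against 1051 and 1009 (0.087 ± 0.13), with the OGFRL1 arrays above. Psmd2, the other scaffold, which docks ubiquitin receptors, had 1042 and 859.8 against 849 and 822 (-0.18 ± 0.15), with the OGFRL1 arrays below. Psmd4, an intrinsic ubiquitin receptor, had 848 and 696 against 629 and 697 (-0.21 ± 0.15). In Psmd2 and Psmd4 EGFP 1 was the highest array, and the other arrays lay close together.

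The lid had a median log2 fold change of 0.14, with 6 of 8 genes above 0, and 3 of the 8 intervals lay inside a 1.5-fold change. Psmd14, the metalloprotease that cuts the ubiquitin chain from the substrate, had 1069.6 and 831 against 1131 and 1045 (0.20 ± 0.16, limma adjusted p = 0.617). EGFP 1 fell between the OGFRL1 arrays. Psmd8 had 1523 and 1516 against 1767 and 1644 (0.17 ± 0.13), and Psmd12 880.0 and 849 against 954 and 909.8 (0.11 ± 0.13). For these 2 genes the OGFRL1 arrays were both above the EGFP arrays.

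Psmd7, the inactive partner of Psmd14, had 427 and 361 against 423 and 412 (0.089 ± 0.15). Psmd3 had 316 and 201 against 236 and 254 (-0.042 ± 0.23). Psmd6 had 1008 and 1439.6 against 1587 and 1373 (0.29 ± 0.20), with EGFP 1 low as in Psmc4. Psmd11, a lid scaffold, had 2319 and 1729 against 1844 and 1610.5 in its brightest probe set (-0.22 ± 0.18), with EGFP 1 high. Psmd13 had 332 and 284 against 303 and 417 (0.21 ± 0.19), and here it was OGFRL1 2 that stood apart.

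The core and the regulatory particle were then set side by side. The core had a median log2 fold change of 0.0036, with 7 of 14 genes above 0, and the regulatory particle one of 0.11, with 13 of 17 above 0, where 55.6% of all genes were. The count of core genes was not stable, at 11 of 14 under quantile normalization and under scaling to equal medians and 3 of 14 without EGFP 2, while the regulatory count stayed between 11 and 14 of 17 under the same settings. The OGFRL1 arrays were both above the EGFP arrays for 2 of 14 core genes and 7 of 17 regulatory genes (27.0% over all genes), and both below for 1 in each particle (20.5% over all genes). The difference between the groups was larger than the gap between the arrays of each group for 0 of 14 core genes and 5 of 17 regulatory genes, beside 34.5% of all genes.

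Within each array, the mean log2 value of the core genes minus that of the regulatory genes does not depend on how bright the array is as a whole. Its level has no meaning of its own, because probe sets differ in brightness, but its change between arrays can be read. It was 0.88 and 0.70 on EGFP 1 and 2, and 0.63 and 0.675 on OGFRL1 1 and 2, or 0.79 ± 0.13 (SD, n = 2) and 0.65 ± 0.029. The difference, OGFRL1 minus EGFP, was -0.14 on the log2 scale, smaller than the gap of 0.18 between the EGFP arrays. It ranged from -0.23 without EGFP 2 to -0.045 without EGFP 1, and was -0.096 without Psmc4, an alternative chosen after the data were seen. Taking each gene as the mean over its probe sets, dim ones included, gave -0.026. Counting each tested probe set on its own gave -0.060. No test was made of this score over genes chosen by name. Its sign was shared by the settings named here, but its size was within the spread of the EGFP arrays. A shift that goes with the signal of a gene does not cancel in the score. The running median log2 fold change of 401 genes of like signal was -0.21 to -0.022 at the core genes. At the regulatory genes it was -0.11 to 0.070. The part of signal in the score was not tested.

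**Figure D3:**
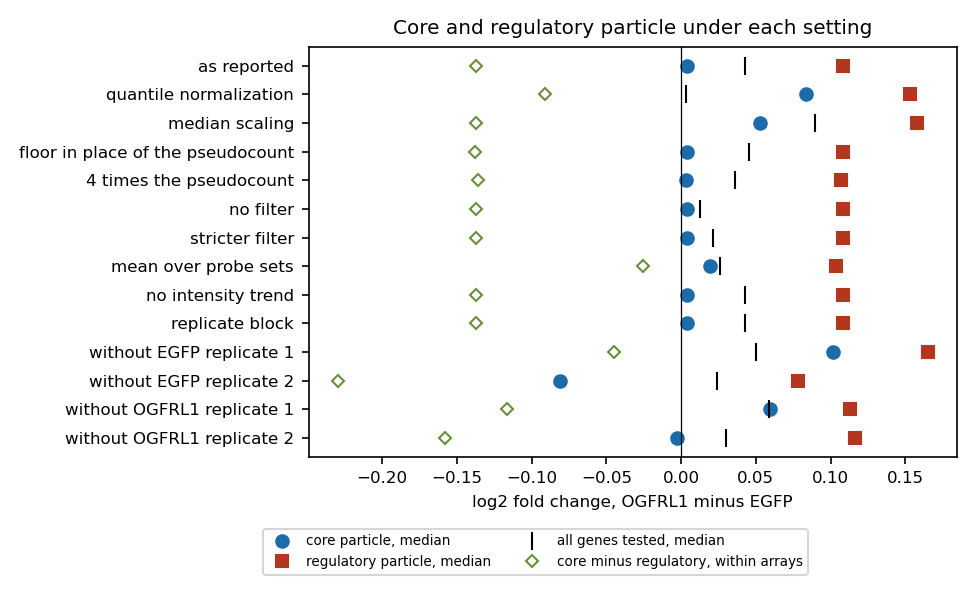
Median log2 fold change (OGFRL1 minus EGFP, horizontal axis) of core particle genes (circles), regulatory particle genes (squares) and all genes tested (ticks), and the within-array contrast of core minus regulatory particle (diamonds), under each processing setting (rows). The regulatory median stays between 0.078 and 0.16, the core median runs from -0.081 without EGFP array 2 to 0.10 without EGFP array 1, and the contrast comes closest to 0, at -0.026, with the mean over probe sets.

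EGFP 1 and EGFP 2 differed from each other in the core more than the groups did. The mean log2 value of core genes was 10.57 and 10.34 on the EGFP arrays and 10.42 and 10.455 on the OGFRL1 arrays, so the OGFRL1 values lay between the EGFP values. For the regulatory particle the means were 9.69 and 9.64 in the EGFP group and 9.79 and 9.78 in the OGFRL1 group, which do not overlap and differ by 0.12. Without Psmc4 they were 9.72 and 9.59 against 9.73 and 9.74, and the difference of 0.080 was smaller than the gap of 0.12 between the EGFP arrays. EGFP 2 was the lowest of the 4 arrays for 21 of the 36 tested members (58.3%), beside 30.04% of all genes, and the highest for 0, beside 22.2%. EGFP 1 was the highest for 14 members (38.9%), beside 28.4% of all genes. The OGFRL1 arrays were closer to each other, with a median gap of 0.10 on the log2 scale over the 31 subunits, against 0.22 for the EGFP arrays.

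Where a subunit had several bright probe sets, they did not always give the same value. Of the 12 subunits with 2 or more probe sets at or above the 75th percentile of mean signal, 8 had the same sign in all of them. Psmc2 was the clearest exception, with a log2 fold change of 0.18 in its brightest probe set and -0.34 in the other, whose signals were 1470.1, 1125, 934 and 1103 on EGFP 1, EGFP 2, OGFRL1 1 and OGFRL1 2. The brightest one belongs to a class that the array's maker marks as able to bind further transcripts, as does the brightest one of Psma6. Of the 4 bright probe sets of Psmd11, the brightest was at -0.22 and the others were above 0, at 0.12, 0.15 and 0.014. Psmd6 had 0.29 and 0.029, and its second probe set, at 1307, 1354, 1261 and 1461, did not show the low value of EGFP 1. Psma7 and Psmb3 had values close to 0 on both sides of it, at -0.033 and 0.018 and at -0.018 and 0.035. Averaging all probe sets of a gene, dim ones included, moved some values further: Psmc1 from 0.25 to 0.022, Psma5 from -0.23 to 0.031, Psma6 from 0.088 to 0.46, Psmd7 from 0.089 to 0.47 and Psmd2 from -0.18 to -0.49. The other probe sets of Psmc1, Psmd2 and Psmd7 had mean signals of 1.68, 2.57 and 4.81 to 4.85, under the minimum of 11.6. Psma5 and Psma6 each had a probe set under it as well, at 6.87 and 5.16. Their second bright probe sets gave -0.29 and 0.049, and a dimmer Psma6 probe set, at a mean signal of 56.8, gave 0.56.

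**Figure D4:**
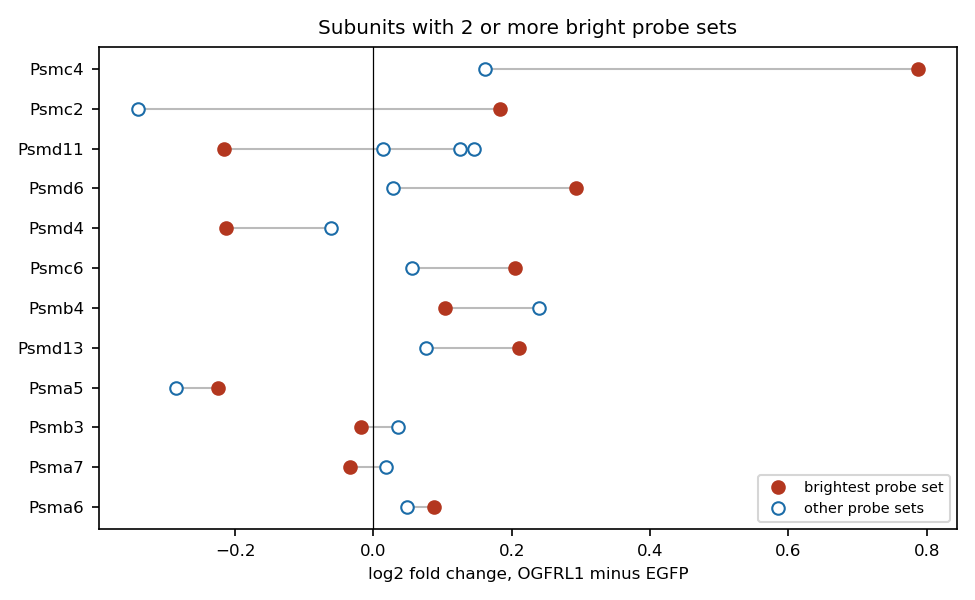
Log2 fold change (OGFRL1 minus EGFP, horizontal axis) of every bright probe set of the 12 subunits that have 2 or more, with the brightest filled and the others open. The probe sets of Psmc4 (0.16 and 0.79) and Psmc2 (-0.34 and 0.18) lie farthest apart.

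The subunits were bright, and fold changes of genes in these arrays went with brightness. Among the 351 genes brighter than every subunit, 301 were below 0 and the median log2 fold change was -0.33. The Cre spike-in controls, labelled RNA that standard protocols add in equal amount to each hybridization, averaged -0.43 over 4 probe sets, and the BioB, BioC and BioD controls -0.32 over 14. The BioB, BioC and BioD controls had mean signals of 107 to 2927, which span the subunits' range of 252 to 2755. The 3213 genes in the subunits' signal range had a median of -0.00068. Set against the running median of 401 genes of like signal, 24 of 31 subunits lay above it, 11 of 14 in the core and 13 of 17 in the regulatory particle, by a median of 0.095 and 0.16. Quantile normalization, which gives the 4 arrays the same distribution, put the core at 0.083 and the regulatory particle at 0.15, and scaling to equal medians put them at 0.053 and 0.16, with 0 subunits past the threshold in either. Psma3, Psma7, Psmb3 and Psmb6 changed sign under the first of these, and Psma7, Psmb2, Psmb3, Psmb6 and Psmd3 under the second, at values no larger than 0.072. The part of brightness in the subunits' values was not tested.

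**Figure D5:**
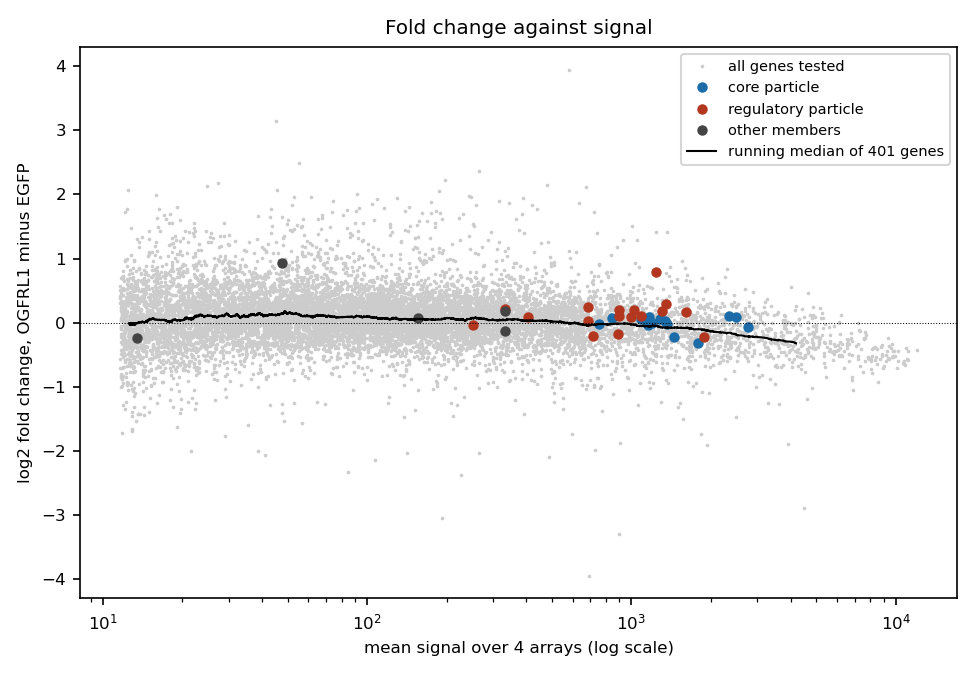
Log2 fold change (OGFRL1 minus EGFP, vertical axis) against the mean signal over 4 arrays (horizontal axis, log scale) for the 11942 genes tested (grey), with core particle genes, regulatory particle genes and other members marked and a running median of 401 genes as a line. The line falls below 0 among bright genes, and 24 of the 31 subunits lie above it.

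The base chaperones, which bind the ATPases before the base is complete, did not pass the test either. Psmd9 had 308 and 310.4 against 329 and 376 (0.18 ± 0.14), Psmd10, known as gankyrin, 158 and 146 against 158 and 164 (0.077 ± 0.15), and Psmd5 374 and 321 against 309 and 322 (-0.13 ± 0.15). All 3 intervals lay inside a 1.5-fold change. The subunits of other tissues were near the floor of the array. Psma8, the testis alpha subunit, had signals from 11.2 to 18.5, and Psmb11, the thymus beta subunit, had 2.62, 12.6, 8.16 and 9.39, under the minimum mean signal of 11.6, and was not tested.

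Psmc3ip, the meiotic and homologous recombination cofactor taken in by the symbol pattern, was the member with the smallest p. It had 28.0 and 35.6 in the EGFP group and 63.1 and 64.1 in the OGFRL1 group, with no overlap. The log2 fold change was 0.94 ± 0.22 with an interval from 0.40 to 1.47, and did not pass over all genes (limma adjusted p = 0.125). Without EGFP 2 it was 1.09, and without EGFP 1 it was 0.78. A second, dimmer probe set had 8.14, 23.3, 40.9 and 35.9 and a log2 fold change of 1.24. The markers of cycling cells given above were also higher on both OGFRL1 arrays, and their part in this value was not tested.

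Partner genes of the proteasome were examined from lists of immunoproteasome subunits, activators, assembly factors, bound proteins, the NRF1 route and ubiquitin genes. Of these 33 were tested, 0 passed the threshold in either direction (0.511% over all genes), and 12 were above 0, with a median log2 fold change of -0.11 beside 0.042 over all genes. Uchl5, Ubqln2 and Nfe2l1, 3 of the 33, had an unadjusted p under 0.05, beside 15.3% of all genes. Adrm1, Psme2, Ddi2 and Uba1 were not analysed here. Uba6, a ubiquitin-activating enzyme and the only ubiquitin gene tested, was at 0.18 ± 0.16, or 0.068 averaged over probe sets.

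The immunoproteasome subunits, which replace Psmb5, Psmb6 and Psmb7 in immune cells and after interferon, varied widely between the arrays of a group, and none passed the test. Psmb9 had 1163 and 466 on the EGFP arrays and 307 and 525 on the OGFRL1 arrays, a log2 fold change of -0.87 ± 0.44 (limma adjusted p = 0.417). Psmb8 had 933 and 448 against 342 and 663 (-0.44 ± 0.41), and Psmb10 1023 and 527 against 490.3 and 569.8 (-0.47 ± 0.30). EGFP 1 was the highest array for all 3 and OGFRL1 2 the second highest. Without EGFP 2, Psmb9 was at -1.52 and Psmb10 at -0.95, and without EGFP 1 they were at -0.21 and 0.0052. The summed signal of 8 macrophage markers, 11398 and 4693 on EGFP 1 and 2 and 6088 and 10178 on OGFRL1 1 and 2, was also highest on EGFP 1 and second highest on OGFRL1 2, with 5 of the 8 above 0 between the groups. Its part in the immunoproteasome values was not tested.

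Activators and assembly factors did not pass the test, with 3 of 9 above 0 and values from -0.34 to 0.10. Psme1, a subunit of the PA28 cap, had 1593, 1273, 1402 and 1417 on EGFP 1, EGFP 2, OGFRL1 1 and OGFRL1 2 (-0.015 ± 0.15). The nuclear cap subunit Psme3 was at -0.26 ± 0.19, the large activator Psme4 at -0.081 ± 0.14 and the inhibitor Psmf1 at 0.10 ± 0.16, all with overlapping groups. The intervals of Psme3, Pomp and Psmg3 reached past a 1.5-fold change. Pomp, the chaperone that matures the core, had 2132, 1547, 1542 and 1689, again with EGFP 1 the highest (-0.17 ± 0.18). Among the other core assembly factors Psmg3, a subunit of an assembly chaperone, was at -0.34 ± 0.18, with both OGFRL1 arrays below, and its partner Psmg4 at 0.084 ± 0.14, with both above. Averaged over their probe sets, Psmg3 turned to 0.044, Psmf1 to -0.024 and Psmg4 was 0.41, so the directions of Psmg3 and Psmf1 rest on the brightest probe set.

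The list of proteins bound to the regulatory particle had a median log2 fold change of -0.15 over 12 genes, of which 4 were above 0. It includes Sem1, a small lid subunit without a Psm symbol, which is not counted in the regulatory particle here and was at -0.21 ± 0.17. Uchl5, a deubiquitinase that docks on the regulatory particle, had 317 and 335 against 499.6 and 458, with no overlap, and a log2 fold change of 0.55 ± 0.14 (limma adjusted p = 0.139). Usp14, the other deubiquitinase of the particle, had 449.9 and 313 against 258 and 333 (-0.35 ± 0.22). Ubqln2, a shuttle that carries ubiquitinated proteins to the proteasome, had 452 and 493 against 638 and 636 (0.43 ± 0.13, adjusted p = 0.203). In Uchl5 and Ubqln2 the arrays of each group lay close together, and in Usp14 the groups interleaved. These values rest on the brightest probe set: averaged over probe sets, Uchl5 was 0.050 (adjusted p = 0.944), Usp14 -0.047, Sem1 0.052 and Ubqln2, with its sign turned, -0.12.

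Of the factors that control proteasome genes, Nfe2l1 had 259.8 and 169 in the EGFP group and 119.5 and 156 in the OGFRL1 group. The OGFRL1 arrays were both lower, with a log2 fold change of -0.61 ± 0.25 that missed the threshold (limma adjusted p = 0.316). It was -0.91 without EGFP 2 and -0.30 without EGFP 1. Nfe2l2, which encodes the related factor NRF2, had 1137 and 839 against 1189 and 1225 (0.30 ± 0.17, adjusted p = 0.47), with the OGFRL1 arrays above. Vcp, the segregase that draws NRF1 out of the endoplasmic reticulum, was at -0.28 ± 0.14, with both OGFRL1 arrays below. Averaged over probe sets, Nfe2l2 was 0.041 and Vcp -0.014. Of the 8 genes of the route 4 were above 0 and 4 below. The transcript levels of NRF1 route genes do not give the factor's activity, which is set by processing of the protein.

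Promoters were searched for the core of the element that NRF1 and NRF2 bind, TGACNNNGCA, and for the NF-Y box CCAAT, on both strands, in the RefSeq promoter table of the GRCm38.p6 assembly (250 bases before to 50 after each gene's start). Of the 31 subunits 25 had an entry. The NRF element was in 1 of these (4.0%), beside 3.45% of the 27025 genes in the table, and CCAAT in 10 (40.0%), beside 41.1%. The shares near those of all genes describe these windows only, since such elements can lie outside them. The 1 match was in the promoter of the lid gene Psmd12, at chr11:107479278-107479309 on the plus strand, shown here as the only subunit sequence with the element, which is in capitals and reads from the opposite strand.
Psmd12: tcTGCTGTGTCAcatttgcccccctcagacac
Psmd12 itself had a log2 fold change of 0.11 ± 0.13 (interval -0.20 to 0.41), within the range of the other lid genes.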

How the data were processed

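Livers were profiled on 4 mouse expression arrays, from 100 ng of total RNA each. The authors deposited 1 linear MAS5 intensity per probe set and array, by the submitters' processing notes, which name no version here. The 2% trimmed mean was 100.0 on each array, and medians were 11.6 to 12.5. Symbols came from the platform annotation: of 45101 probe sets, 64 were controls, 34945 had 1 symbol, 932 had several and 9160 had none. Of the 34945, 34741 matched the RefSeq table by gene ID.

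The deposited intensities were taken as log2(signal + 3.51), the pseudocount being the 25th percentile of all values. Each gene was read from its brightest probe set by mean signal. The 11942 genes with a mean of at least 11.6, the median over probe sets, were tested in limma 3.58.1 (R 4.3.3), 2-sided, the variance prior following signal, at an adjusted p of 0.05 by Benjamini and Hochberg over all of them. Errors and intervals of fold changes are limma's, on the log2(signal + pseudocount) scale, which understates changes of dim genes. The script was tested on simulated data. Every gene of the symbol pattern is named; of partner genes, Nfe2l1, Nfe2l2, the immunoproteasome subunits, activators, Pomp and up to 3 per list with the largest moderated t. The genes and lists were chosen with earlier results of these data known. Alternatives covered normalization, pseudocount, filter, choice of probe set, variance trend, the replicate number as a block and leaving out each array.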

Additional observations from a re-analysis of the deposited data

How the results depend on the processing

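No gene of the symbol pattern and no partner gene passed the threshold under any normalization, pseudocount, filter, choice of probe set, trend setting or under the replicate block. Only leaving out EGFP array 2 and the crossed pairing below gave calls. The regulatory particle's median log2 fold change was 0.15 under quantile normalization and 0.16 under median scaling, and the core minus regulatory contrast was -0.026 with the mean over probe sets. Averaging over probe sets also turned the sign of Ubqln2 and Psmg3. The counts over all genes (43 higher, 18 lower) were less stable: 1 and 3 under quantile normalization, 0 and 0 with no filter and with no intensity trend, 1 and 1 with the stricter filter of 76.6, 8 and 5 with the mean over probe sets, and 30 lower with 4 times the pseudocount. Leaving out each array in turn gave 0 to 450 genes higher and 0 to 406 lower, 0 to 2 genes of the symbol pattern higher (Psmc4 and Psmc3ip, which is no subunit) and 0 to 1 lower (Psma4), 0 to 3 partner genes lower, and medians from -0.081 to 0.10 (core) and 0.078 to 0.16 (regulatory), with a contrast from -0.23 to -0.045. In these fits the lone array of a group is assumed to vary like the others. The replicate block gave 39 genes higher and 20 lower. Same-numbered arrays deviated with a correlation of -0.28, and the labels do not say whether they share more than a number. The crossed pairing, a replicate block chosen after seeing the data, gave 550 genes higher and 384 lower, 2 genes of the symbol pattern higher, and 1 partner gene higher and 2 lower. Dim genes are limited by signal over background, but the subunits were not dim: their mean signals were 252 or more. The causes of these shifts were not tested.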
